A study of Homo sapiens with 12 samples.

Results

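The genes described here encode the aminoacyl-tRNA synthetases, the enzymes that load each tRNA with its amino acid. They were measured by RNA-seq of polyadenylated RNA from TK6 cells, a human lymphoblastoid B-cell line grown in suspension and used in genotoxicity testing. Members were the entries of the deposited count table named by an amino acid letter followed by ARS1 or ARS2, together with EPRS1, FARSA and FARSB, each summed with its copy entries. This gave 37 genes of 44055 gene names, of which 20 are cytosolic (names ending in 1, FARSA and FARSB) and 17 mitochondrial (names ending in 2). Cells were incubated for 24 h with 3-methylcholanthrene, a polycyclic aromatic hydrocarbon and a ligand of the aryl hydrocarbon receptor (AHR), at 0 µg/mL (control), 0.0004 µg/mL (low), 0.04 µg/mL (medium) or 4 µg/mL (high), with 3 libraries in each group. All groups were the same line, obtained from a cell bank, and the labels name no genetic change and no solvent for the control. They do not tell whether the 3 libraries sharing a concentration were cultured separately, and every p-value below therefore rests on a library-to-library spread that could be technical. In such bulk RNA, fewer cells of a kind and less RNA per cell cannot be told apart.

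Each synthetase recognises 1 amino acid and its tRNAs. Human cells translate in the cytosol and, separately, in mitochondria, and most amino acids have 1 nuclear gene for each compartment. Several cytosolic enzymes sit together in the multisynthetase complex, held by the scaffold proteins AIMP1, AIMP2 and EEF1E1. Glycine and lysine are exceptions, because GARS1 and KARS1 each make the enzyme of both compartments. EPRS1 joins the glutamate and proline activities in 1 protein, FARSA and FARSB are the subunits of the cytosolic phenylalanine enzyme, and mitochondria make Gln-tRNA from Glu-tRNA with an amidotransferase (GATB, GATC and QRSL1) in place of a glutamine enzyme. Many cytosolic synthetase genes are targets of ATF4, the transcription factor of amino acid stress, and WARS1 is an interferon-induced gene.

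Promoter stretches from the RefSeq table (GRCh38.p14, 250 bases before to 50 after a start site) matched 30 of the 37 genes and are shown first because they hold letter patterns of factors tied to these genes or to the compound. The core of the ATF4 response element was searched as TGATGCAA on both strands. It stood in 6 of 16 cytosolic promoters (37.5%), in 0 of 14 mitochondrial ones and in 0.866% of all 35116 promoters of that length. Here and below, all promoters means every entry, on any sequence and whether or not its gene is expressed. Members were limited to a single promoter per gene on the main chromosomes. The sets are therefore unlike, and enrichment was not tested. The 30 bases around each match are given 5′ to 3′ on the gene's strand, with the match in capitals.
AARS1: ttttctcgcagTTGCATCAgccaagttaga
CARS1: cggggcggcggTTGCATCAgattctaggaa
IARS1: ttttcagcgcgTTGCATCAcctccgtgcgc
MARS1: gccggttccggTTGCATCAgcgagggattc
NARS1: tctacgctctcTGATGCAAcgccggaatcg
TARS1: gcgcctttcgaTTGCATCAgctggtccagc
Of these windows AARS1 lies at chr16:70289675-70289704, minus strand, CARS1 at chr11:3057407-3057436, minus strand, IARS1 at chr9:92293692-92293721, minus strand, MARS1 at chr12:57488053-57488082, plus strand, NARS1 at chr18:57621804-57621833, minus strand, and TARS1 at chr5:33440956-33440985, plus strand. Counted from the start site, the first matched base was at -187 in AARS1, -13 in IARS1, -4 in MARS1, -2 in CARS1, 3 in TARS1 and 15 in NARS1. All 6 matches but that of NARS1 read TTGCATCA, the reverse complement of TGATGCAA. The windows of CARS1, IARS1, MARS1, NARS1 and TARS1 overlap an exon of their gene as annotated, and that of AARS1 lies upstream of it. The looser pattern TGATGNAA, which contains the first, added only YARS2 (3.62% of all promoters hold it).

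The core of the AHR response element was searched as TNGCGTG on both strands, since the compound is an AHR ligand. It stood in 0 of 16 cytosolic and 4 of 14 mitochondrial promoters (28.6%), and in 5.51% of all promoters. At that share few matches among 16 promoters would be usual, and the difference between compartments was not tested for this or the other patterns.
CARS2: acactgtgtatTAGCGTGctgacgtgggct
NARS2: cttcttccccgTAGCGTGatgacgtaagcg
PARS2: tcacgcgcgccTAGCGTGgggcggggccag
RARS2: agaggtggacaTGGCGTGcggctttcgccg
These lie at chr13:110706532-110706561, minus strand for CARS2, chr11:78574845-78574874, minus strand for NARS2, chr1:54764613-54764642, minus strand for PARS2, and chr6:87589938-87589967, minus strand for RARS2. Those of NARS2 and RARS2 overlap an exon of their gene, and those of CARS2 and PARS2 overlap none. First matched bases were at -35 in CARS2, 2 in NARS2 (with another match at 25), -108 in PARS2 and 32 in RARS2. A match is a description of letters and not a binding site, and a promoter with none may hold the element outside this window.

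HARS1 and HARS2, the cytosolic and mitochondrial histidine enzymes, are neighbours that point away from each other on chromosome 5, with 84 bases between their start sites. That stretch (chr5:140691371-140691454, plus strand) is printed in the direction of HARS2, with both copies of CCGGAAGT, the core bound by ETS factors, in capitals on either strand.
HARS1 and HARS2: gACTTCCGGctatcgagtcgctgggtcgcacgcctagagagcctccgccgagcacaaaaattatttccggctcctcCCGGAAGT
One copy stands beside each start. CCGGAAGT was found in 7 of the 30 synthetase promoters and in 4.14% of all. HARS1 and HARS2 each count among the 7 through the same copies. A pattern for NRF1, a factor that acts on genes for mitochondria, was searched with a free base near its centre. It was in 3 of 16 cytosolic and 3 of 14 mitochondrial promoters (5.78% of all). Only a match in MARS2, a mitochondrial member, read the same on both strands, as the palindromic motif of NRF1 does.

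Library totals ran from 9163368 to 19841387 counts, and synthetase genes took 0.545% to 0.651% of a library. Depth was not equal between groups. Totals ran from 9472214 to 13650359 in control, 9291628 to 9898827 at low, 9163368 to 13194442 at medium and 11520939 to 19841387 at high. B-cell markers listed for the check were all detected (9 of 9, summed level 2283 to 3459 CPM), with CD74, the invariant chain of MHC class II, the highest. Of the markers of T and NK cells 2 of 6 (CD3G and CD8A) had 0 counts in every library and the list summed to 3.93 to 8.42 CPM, of myeloid markers 1 of 5 (MPO; 1.94 to 6.51 CPM), and of erythroid markers all 3. On the epithelial and stromal list (112 to 162 CPM) EPCAM and COL1A2 had 0 counts and KRT8, a keratin, averaged 141 CPM. The summed marker levels of the groups overlapped for every list with counts. Low replicate 3 and high replicate 3 stood apart in mitochondrial 16S ribosomal RNA. It took 7.99% and 7.96% of their counts and 1.43% to 5.52% of the others. The same libraries were also highest in 7SL, 7SK and RMRP, small noncoding RNAs without poly(A) tails. These took 0.0141% and 0.0110% of their counts and 0.00062% to 0.00987% of the others. What the 16S share stands for was not tested. For several genes that move with it, this is given with their values.

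Per annotated exon length, the median cytosolic synthetase mRNA was about an order of magnitude more abundant than the median mitochondrial one. Levels per length are given as TPM, counts per kilobase of exon scaled to 1000000 per library. The median over genes of the mean level in the 12 libraries was 192 TPM for the 20 cytosolic genes and 19.97 TPM for the 17 mitochondrial genes. Among the 10 amino acids whose enzymes both lack copy entries, the cytosolic gene was the higher in all 10, by 2.82 to 13.7 times (median 7.18). In the 4 pairs with a copy entry on either side, whose levels are uncertain, the cytosolic level was 0.139 times the mitochondrial one for cysteine, 0.215 for isoleucine, 0.824 for valine and 5.14 for serine. The leucine pair LARS1 and LARS2 had the smallest ratio of the 10 and the arginine pair RARS1 and RARS2 the largest. The ratios depend on annotated exon lengths, 2122 bases for RARS1 and 4218 for RARS2. Not divided by length, the control means of this pair were 219 and 33.6 CPM, a smaller contrast. These levels describe the line, and no test was made on them.

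TARS1, the threonine enzyme, had the highest mean over the 12 libraries (438 TPM; 412 ± 87.8 TPM in control, SD, n = 3), followed by KARS1 (413 TPM; 414 ± 40.8 in control) and FARSA (372 TPM; 328 ± 113 in control). Spread between control libraries was larger for FARSA than the gap between these 3 genes, so their order is not resolved. FARSB, whose protein pairs with FARSA, stood at only 67.0 ± 10.5 TPM in control on an exon length of 6994 bases against 1811 for FARSA. Members of the multisynthetase complex (8 genes) had a median of 202 TPM and the other 12 cytosolic genes 192 TPM. GARS1, which like KARS1 serves both compartments, stood at 292 ± 37.3 TPM in control.

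Mitochondrial genes ranged from 87.5 TPM for MARS2, the methionine enzyme, down to 1.68 TPM for FARS2, the phenylalanine enzyme, as means of 12 libraries. IARS2 (isoleucine, 90.5 ± 3.18 TPM in control) and MARS2 (99.5 ± 4.04 TPM) differed in control by more than either SD. TARS2 and YARS2 followed at 56.0 ± 9.28 and 55.7 ± 4.03 TPM, within each other's spread. FARS2 has an annotated exon length of 31403 bases, the longest of the 37, and its low value per length rests on that length; its counts were 210 to 451 per library, close to those of WARS2 (199 to 411). EARS2, the glutamate enzyme, has 56.5% of its exon bases inside exons of GGA2, so its level is uncertain. For the other members that overlap was at most 10.4%.

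**Figure D1:**
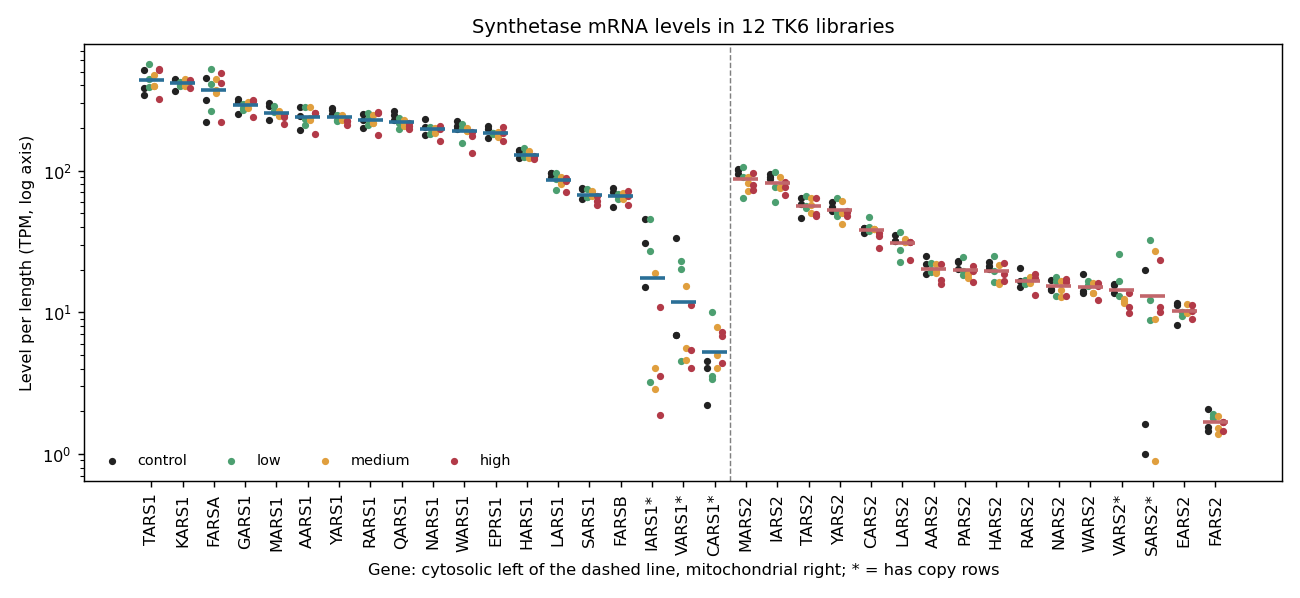
Level per length (TPM, logarithmic axis) of 35 synthetase genes in the 12 libraries, with points coloured by group and a bar at the mean of all libraries. Cytosolic genes stand left of the dashed line and, apart from the 3 with copy entries (asterisks), lie at 66.1 to 438 TPM on average, while mitochondrial genes lie at 1.68 to 87.5 TPM.

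Among the 37 genes 5 have copy entries on alternate or patch contigs, and their values swung between libraries of the same group. These are IARS1, CARS1 and VARS1 (isoleucine, cysteine and valine, cytosolic) and SARS2 and VARS2 (serine and valine, mitochondrial), with 14 copy entries together. SARS2 had 0 counts at its primary locus and all of them in the copy, VARS2 had 96.5%, VARS1 68.1% and CARS1 56.8% of counts in copies, and IARS1 0.486%. How reads that match several loci were handled is not stated, so the levels of these genes are uncertain even after summing. Their median within-group SD was 1.05 on the log2 scale, against 0.14 for the 32 other synthetase genes. Over all genes tested the same contrast was 0.57 for 621 genes with copy entries and 0.22 for 11246 without.

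For SARS2 the library values (CPM scaled with TMM factors, here and below called scaled CPM) were 16.8, 1.43 and 0.958 in control, 8.27, 11.3 and 31.9 at low, 25.7, 0.822 and 8.86 at medium, and 21.6, 11.1 and 9.96 at high. Control replicates 2 and 3 and medium replicate 2 were lowest, and every group overlapped control. Its log2 differences of 1.44 ± 1.11, 0.89 ± 1.11 and 1.17 ± 1.10 at low, medium and high (SE) had adjusted p of 0.813 or more in edgeR. VARS1 had 63.2, 13.6 and 14.7 in control, 42.2, 9.29 and 49.95 at low, 32.1, 11.6 and 10.05 at medium, and 11.2, 25.6 and 8.89 at high. It was highest in control replicate 1 and low replicates 3 and 1. VARS2, summed over 6 entries, was steadier, with 25.1, 25.4 and 24.2 in control, 45.1, 28.4 and 23.4 at low, 20.9, 19.95 and 22.8 at medium, and 23.2, 18.8 and 20.1 at high.

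IARS1 (chromosome 9, 92210207 to 92293697, GRCh38.p14) had the largest difference from control of any member at medium and high. Scaled CPM were 63.6, 96.9 and 35.1 in control, 104, 61.0 and 7.63 at low, 6.57, 42.1 and 9.65 at medium, and 7.89, 27.2 and 4.54 at high. All 3 high libraries lay below all controls, medium overlapped control through replicate 2, and low held both the highest value and one of the lowest. Its log2 difference from control was -2.27 ± 0.93 in high (SE; 95% interval -4.32 to -0.23), and it did not pass (edgeR quasi-likelihood, adjusted p = 0.813, unadjusted p = 0.0324). With 1 library left out it ran from -3.37 (without high replicate 2) to -1.88 (without control replicate 2). NOL8 and IPPK, its neighbours with copy entries of their own, also varied widely, by 17.2 and 6.79 times between their lowest and highest libraries against 23.6 times for IARS1. SPTLC1, a neighbour without a copy entry, varied by 1.21 times. Whether the copy contig accounts for the swing of IARS1 was not tested. At low, medium and high IARS1 was lower in the library richest in mitochondrial ribosomal RNA than in the poorest. Those log2 differences were -2.85, -2.51 and -2.35. In control it was higher in the richest library, by 0.84. The part of this in the value in high was not tested.

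**Figure D2:**
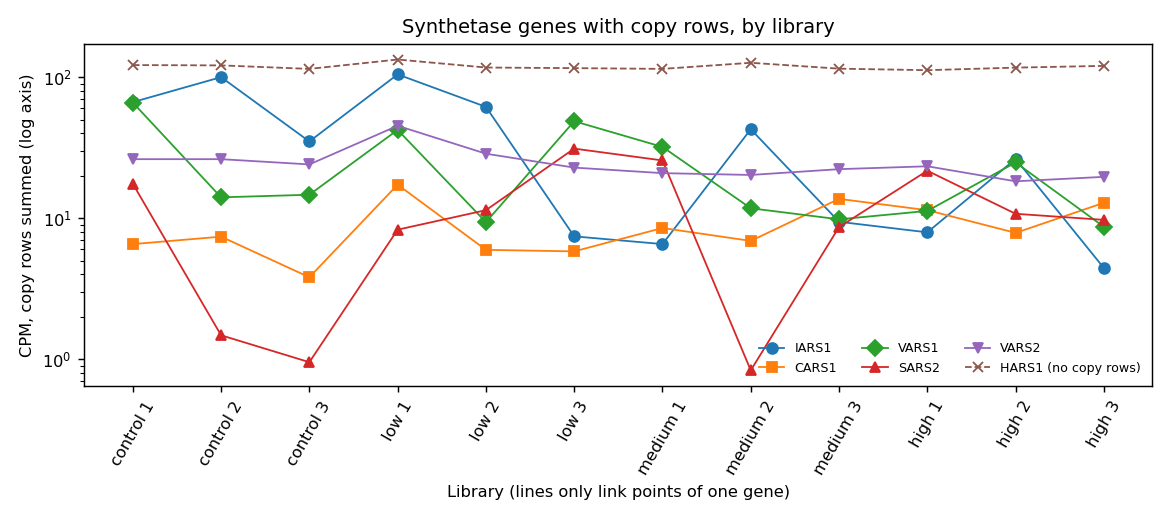
CPM, copy entries summed, of the 5 synthetase genes with copy entries in each library (logarithmic axis), with HARS1, which has none, for comparison (dashed). SARS2 runs from 0.834 to 31.1 CPM and IARS1 from 4.43 to 104, while HARS1 stays between 112 and 133.

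At 4 µg/mL no synthetase gene passed. All 37 were tested among 11867 genes, and 0 were called at an adjusted p below 0.05 by edgeR's quasi-likelihood test, DESeq2 or limma voom (0% of all genes were called by edgeR). At an unadjusted p below 0.05 there was 1 member, IARS1, or 2.70%, where 3.08% of all genes were below it. Of the 20 cytosolic genes 12 lay above control and 8 below (median log2 difference 0.046), and of the 17 mitochondrial genes 7 lay above and 10 below (median -0.020), beside a median of 0.0049 over all genes, of which 50.8% lay above and 49.2% below. Groups did not overlap for 2 members that were higher (5.41%; 3.74% of all genes) and 3 that were lower (8.11%; 3.61% of all genes). The higher ones were CARS1 and KARS1, and the lower ones IARS1, QARS1 and VARS2.

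KARS1, the lysine enzyme of both compartments, had scaled CPM of 428, 437 and 403 in control, 457, 421 and 452 at low, 478, 419 and 459.9 at medium, and 449, 445 and 495 at high. All 3 high libraries were above all controls, and low and medium overlapped them. Its log2 difference was 0.13 ± 0.086 (SE; 95% interval -0.057 to 0.32; edgeR adjusted p = 0.813). Without high replicate 3, rich in 16S RNA, it was 0.082. KARS1 was higher in the library richest in 16S RNA than in the poorest in all 4 groups (25.7% of all genes were). Those log2 differences were 0.086, 0.10, 0.19 and 0.15 in control, low, medium and high, and their part in the value in high was not tested. QARS1, the glutamine enzyme, had 274, 265 and 269 in control, 249.7, 266 and 234 at low, 237, 256 and 263 at medium, and 244, 259 and 239.9 at high. High and medium libraries all lay below the controls, with a log2 difference of -0.12 ± 0.081 in high and -0.10 ± 0.081 in medium (edgeR adjusted p = 0.813 and 0.999).

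CARS1, the cysteine enzyme and the least abundant cytosolic member, had 6.27, 7.17 and 3.83 in control, 17.3, 5.91 and 5.97 at low, 8.55, 6.80 and 14.03 at medium, and 11.3, 8.12 and 13.2 at high. Its 3 high libraries were above the controls, at 0.92 ± 0.44 (log2, SE; edgeR adjusted p = 0.813), and it is 1 of the genes with copies. CARS1 too was higher in the library richest in 16S RNA than in the poorest in all 4 groups (25.7% of all genes were). Those log2 differences were 0.59, 0.012, 0.29 and 0.63 in control, low, medium and high, and their part in the value in high was not tested.

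YARS1, the tyrosine enzyme, had 277, 299 and 293 in control, 261, 277 and 268 at low, 262, 269 and 299 at medium, and 251, 282 and 256 at high. Its difference in high was -0.14 ± 0.085 (log2, SE; edgeR adjusted p = 0.813) with overlapping groups. YARS1 was lower in the library richest in 16S RNA than in the poorest in all 4 groups (26.5% of all genes were). Those log2 differences were -0.083, -0.046, -0.036 and -0.14 in control, low, medium and high. Their part in the value in high was not tested. WARS1, the interferon-induced tryptophan enzyme, had 274, 306 and 294 in control, 291, 305 and 240.3 at low, 282, 286 and 292 at medium, and 251, 300.03 and 206 at high. High replicate 3 and low replicate 3, the libraries richest in 16S RNA, were the lowest of the 12. Its log2 difference in high, -0.21 ± 0.13 (adjusted p = 0.813), was -0.082 without high replicate 3.

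At 0.04 µg/mL 0 of 37 members were called (edgeR; 0% of all genes) and 0 had an unadjusted p below 0.05 (1.91% of all genes), with 0 called by DESeq2 and voom as well. Cytosolic genes lay above control in 12 of 20 (median log2 0.046) and mitochondrial genes in 8 of 17 (median -0.0033), with 0.0021 over all genes, of which 50.5% lay above and 49.5% below. One member was higher without overlap (2.70%; 5.62% of all genes), CARS2, the mitochondrial cysteine enzyme, and 3 were lower (8.11%; 5.21% of all genes), PARS2, QARS1 and VARS2. The smallest p was that of IARS1 (-1.72 ± 0.92, adjusted p = 0.999), followed by CARS1 at 0.77 ± 0.44 (log2, SE).

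PARS2, the mitochondrial proline enzyme, had scaled CPM of 23.1, 23.5 and 22.8 in control, 20.5, 21.4 and 28.2 at low, 20.8, 20.1 and 20.3 at medium, and 22.9, 19.6 and 22.9 at high. Every medium library was below every control, by a log2 difference of -0.18 ± 0.13 (edgeR adjusted p = 0.999). PARS2 was higher in the library richest in 16S RNA than in the poorest in all 4 groups (25.7% of all genes were). In medium that log2 difference was 0.048, and its part in the value in medium was not tested. CARS2 had 101, 103 and 104 in control, 134, 103 and 118 at low, 109.8, 107 and 114 at medium, and 95.5, 112 and 85.4 at high. It was 0.10 ± 0.11 in medium and 0.20 ± 0.11 in low (log2, SE; edgeR adjusted p = 0.999 and 0.913), and low overlapped control. MARS2 and FARSA differed by -0.21 ± 0.17 and 0.35 ± 0.31 in medium, and FARSA became 0.16 without control replicate 3 and 0.59 without control replicate 1.

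At 0.0004 µg/mL 0 of 37 members were called (edgeR; 0% of all genes), 0 had an unadjusted p below 0.05 (2.73% of all genes) and 0 were free of overlap with control (3.63% of all genes were higher and 3.38% lower without overlap). DESeq2 and voom called 0 members. Of the cytosolic genes 15 of 20 lay above control (median log2 0.069) and of the mitochondrial genes 10 of 17 (median 0.026), where 51.6% of all genes lay above and 48.4% below (median 0.0082). The smallest p was that of VARS2 at 0.38 ± 0.20 (log2, SE; adjusted p = 0.913), which was 0.058 without low replicate 1. CARS1 at 0.76 ± 0.44 was 0.052 without the same library. IARS2, which followed QARS1 and YARS1 among the lower genes, differed by -0.13 ± 0.15 and by 0.0055 without low replicate 3.

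Across the 4 groups together the F test that any group differed called 0 of 37 members (edgeR; 0% of all genes, 1.59% at an unadjusted p below 0.05), and the smallest unadjusted p was 0.0257, for VARS2. A slope on the rank of concentration also called 0 (0% of all genes, 2.85% at an unadjusted p below 0.05), with the smallest p, 0.0104, for IARS1 (adjusted p = 0.858). Each of these 2 tests had 1 member with an unadjusted p below 0.05. The median SE of a member's log2 difference in high was 0.13, against 0.20 over all genes.

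**Figure D3:**
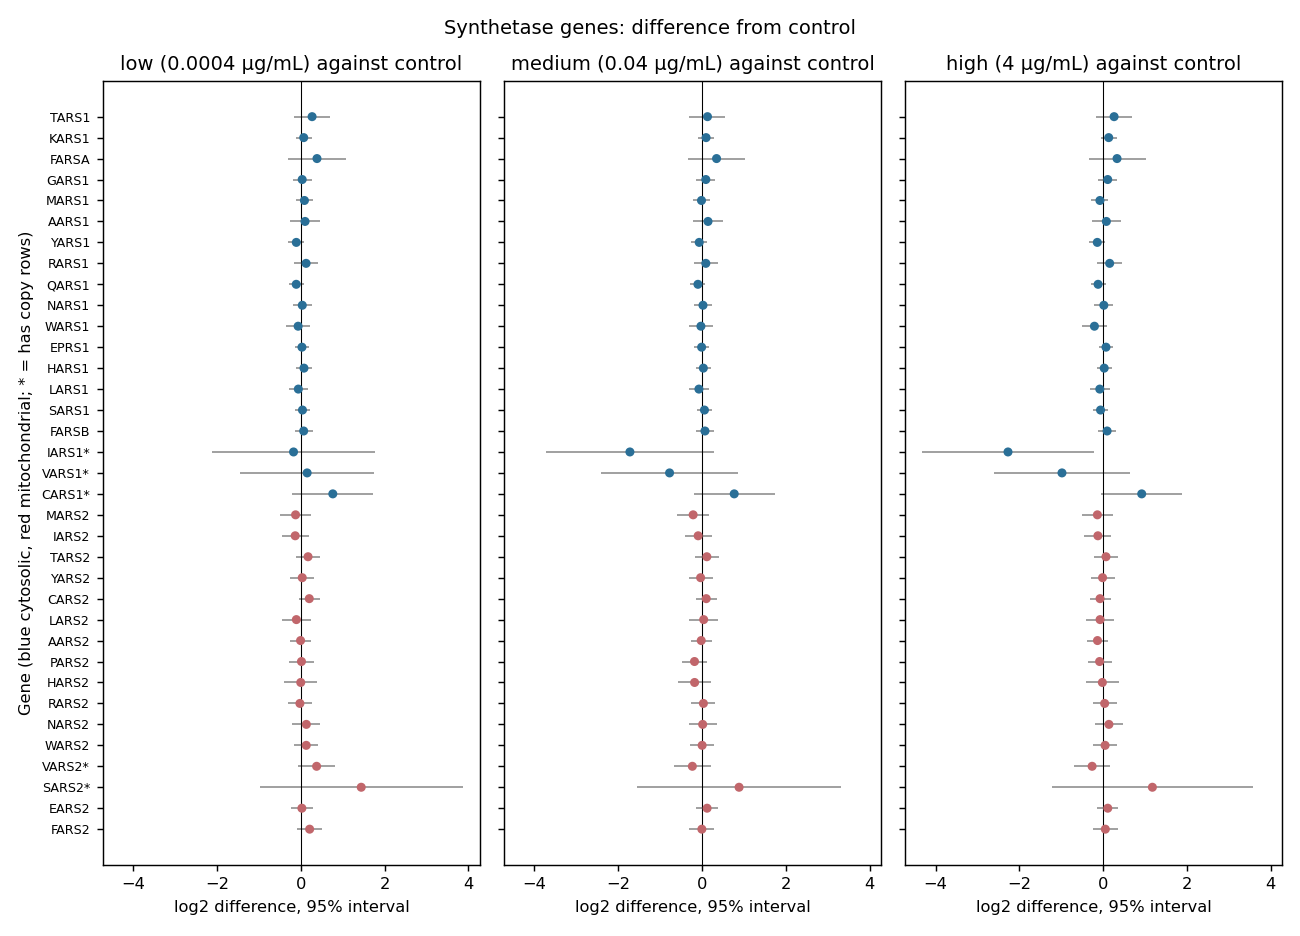
Log2 difference from control with its 95% interval for 35 synthetase genes at the 3 concentrations (blue cytosolic, red mitochondrial, asterisks for genes with copy entries). Of the intervals drawn, only that of IARS1 in high leaves out 0, and the 4 widest in high belong to genes with copy entries (SARS2, IARS1, VARS1 and CARS1).

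The 4 cytosolic genes that hold TGATGCAA and have no copy entry had 0 calls (edgeR; 0% of all genes were called at any concentration). At low all 4 lay above control, where 51.6% of all genes did. Their log2 differences were 0.27 ± 0.20 for TARS1, 0.10 ± 0.16 for AARS1, 0.087 ± 0.092 for MARS1 and 0.036 ± 0.10 for NARS1 (SE; edgeR adjusted p of 0.913 or more). At medium 3 of 4 lay above control, where 50.5% of all genes did. In high their log2 differences were 0.26 ± 0.20 for TARS1, 0.076 ± 0.16 for AARS1, 0.016 ± 0.10 for NARS1 and -0.078 ± 0.092 for MARS1 (SE; adjusted p of 0.813 or more in edgeR). All 4 were also higher in the library richest in 16S RNA than in the poorest within each of the 4 groups (25.7% of all genes were), and the part of that in the values above was not tested. TARS1 had scaled CPM of 650.04, 508 and 490.4 in control, 622, 535 and 830.4 at low, 670.4, 547 and 588 at medium, and 719, 493 and 762 at high. Its groups overlapped, with low replicate 3 and high replicate 3 the highest of all. The 17 genes listed for ATF4 and amino acid stress had 0 called at any concentration by edgeR (0% of all genes). In low, medium and high 10, 9 and 7 of 17 lay above control, with medians of 0.022, 0.011 and -0.039. Of all genes 51.6%, 50.5% and 50.8% lay above control. SLC7A5, an amino acid transporter, had the smallest p of them in high, at -0.26 ± 0.12 in high (adjusted p = 0.813).

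The 4 mitochondrial genes that hold TNGCGTG had 0 calls too (edgeR; 0% of all genes). In high CARS2 was at -0.075 ± 0.11, NARS2 at 0.14 ± 0.15, PARS2 at -0.085 ± 0.13 and RARS2 at 0.035 ± 0.13 (log2, SE; edgeR adjusted p of 0.813 or more).

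Comparing the compartments, the mean over genes of log2(scaled CPM + 1) was taken in each library for cytosolic and for mitochondrial genes, and the second subtracted from the first. Over all 37 genes this difference was 2.15, 2.18 and 2.01 in control, 2.23, 1.84 and 2.05 at low, 1.96, 2.17 and 2.03 at medium, and 1.91, 1.96 and 2.07 at high. The means were 2.11 ± 0.092, 2.04 ± 0.20, 2.06 ± 0.10 and 1.98 ± 0.082 (SD, n = 3), so treated groups were lower by 0.071, 0.055 and 0.13, and the ranges of their libraries overlapped that of control. Without the 5 genes with copies, a choice made after seeing the data, the sign turned. The 17 cytosolic and 15 mitochondrial genes then gave 2.39 ± 0.094 in control, 2.45 ± 0.18 at low, 2.48 ± 0.051 at medium and 2.47 ± 0.15 at high (SD, n = 3), with treated groups higher by 0.060, 0.089 and 0.081. Here too the ranges overlapped, and no test was made of this score.

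Libraries of the same group differed more than the groups did, and in step with their 16S RNA share. Ordered by 16S share, the difference between compartments (genes without copies) was 2.61 in low replicate 3 (7.99%) and 2.62 in high replicate 3 (7.96%), and 2.26, 2.31 and 2.29 in the 3 libraries lowest in 16S RNA, low replicate 2 (1.46%), high replicate 2 (1.45%) and control replicate 3 (1.43%). The cytosolic mean was 8.22 and 8.21 in the former 2 and 7.97 to 8.02 in the latter 3, while the mitochondrial mean was 5.61 and 5.58 against 5.67 to 5.77. Within control, low and high the order of the 3 libraries was the same for 16S share and for the compartment difference, and within medium replicates 1 and 3 (4.80% and 3.13%) were exchanged, at 2.50 and 2.51. Every treated group held more 16S RNA on average than control, which stood at 2.48 ± 1.23% (SD, n = 3). Its mean share was 4.97 ± 3.29% for the high group, 4.28 ± 3.36% for the low group and 3.55 ± 1.10% for the medium group. All genes of the mitochondrial genome together took 15.7 ± 1.14% in control, 18.4 ± 3.87% at low, 18.0 ± 1.30% at medium and 20.5 ± 2.39% at high. For this total the high libraries (18.5% to 23.1%) all lay above the controls (14.6% to 16.9%), and low and medium overlapped control. The part of 16S RNA or of this total in the values above was not tested. Without low replicate 3 and high replicate 3 there were again 0 of 37 members called in low, medium or high (edgeR; 1 of 12001 genes tested was called in each).

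**Figure D4:**
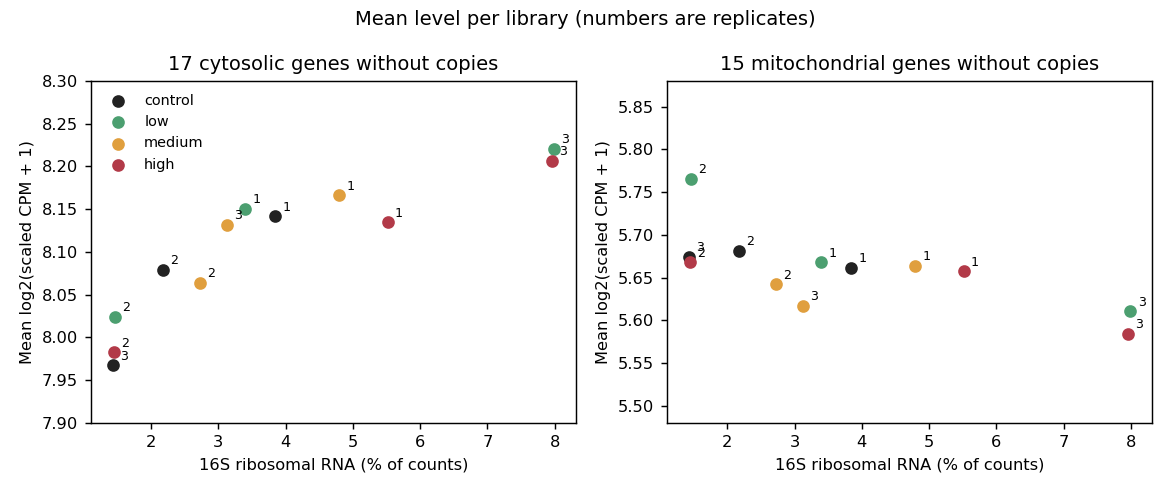
Mean log2(scaled CPM + 1) of the 17 cytosolic (left) and 15 mitochondrial (right) synthetase genes without copy entries against the share of counts taken by 16S ribosomal RNA, 1 point per library, labelled by replicate and coloured by group. Cytosolic means run from 7.97 at 1.43% to 8.22 at 7.99%, and mitochondrial means from 5.77 at 1.46% to 5.58 at 7.96%.

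Gene by gene, the cytosolic members differed among themselves. In each group the library richest in 16S RNA was set beside the poorest (control replicates 1 and 3, low 3 and 2, medium 1 and 2, high 3 and 2). Of the 17 cytosolic genes without copies 14, 12, 11 and 13 were higher in the richest library of control, low, medium and high, where 49.5%, 50.5%, 49.1% and 50.1% of all genes were, and of the 15 mitochondrial genes 8, 7, 8 and 8. Of the cytosolic genes 10 (58.8%) were higher in the richest library in all 4 groups, where 25.7% of all genes were, and 3 (17.6%) were lower in all 4, where 26.5% of all genes were. Among the 15 mitochondrial genes 3 (20%) were higher and 5 (33.3%) lower in all 4, near those shares. The cytosolic genes lower in all 4 were LARS1, WARS1 and YARS1. Mitochondrial genes lower in all 4 included HARS2, IARS2, LARS2 and MARS2, and FARS2, PARS2 and RARS2 were higher in all 4. These libraries were compared after the values had been seen, and no test was made.

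FARSA (chromosome 19, 12922479 to 12933711) had the largest ratio of highest to lowest library of the cytosolic genes without copies, with scaled CPM of 345, 251 and 193 in control, 347, 221 and 462 at low, 378, 293 and 332 at medium, and 345, 206 and 441 at high. It was highest in low replicate 3 and high replicate 3 and lowest in control replicate 3 and high replicate 2. Its partner subunit FARSB had 223, 219 and 185 in control, 219.9, 221 and 217 at low, 228, 213 and 218 at medium, and 215, 206 and 249 at high. In 16S-rich against 16S-poor libraries FARSA differed by 0.83, 1.06, 0.37 and 1.10 (log2; control, low, medium and high) and FARSB by 0.27, -0.031, 0.10 and 0.27.

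MARS2, the mitochondrial methionine enzyme (chromosome 2, 197705369 to 197708395), went the other way, with scaled CPM of 123, 137 and 146 in control, 128, 149 and 95.2 at low, 102, 126 and 123 at medium, and 111, 148 and 109 at high. Its differences between 16S-rich and 16S-poor libraries were -0.25, -0.64, -0.30 and -0.44 (log2; control, low, medium and high). IARS2 had 135, 146 and 149 in control, 128, 161 and 103 at low, 127, 146 and 131 at medium, and 125, 150.3 and 118 at high, with differences of -0.14, -0.63, -0.20 and -0.35. Both were lowest in low replicate 3.

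**Figure D5:**
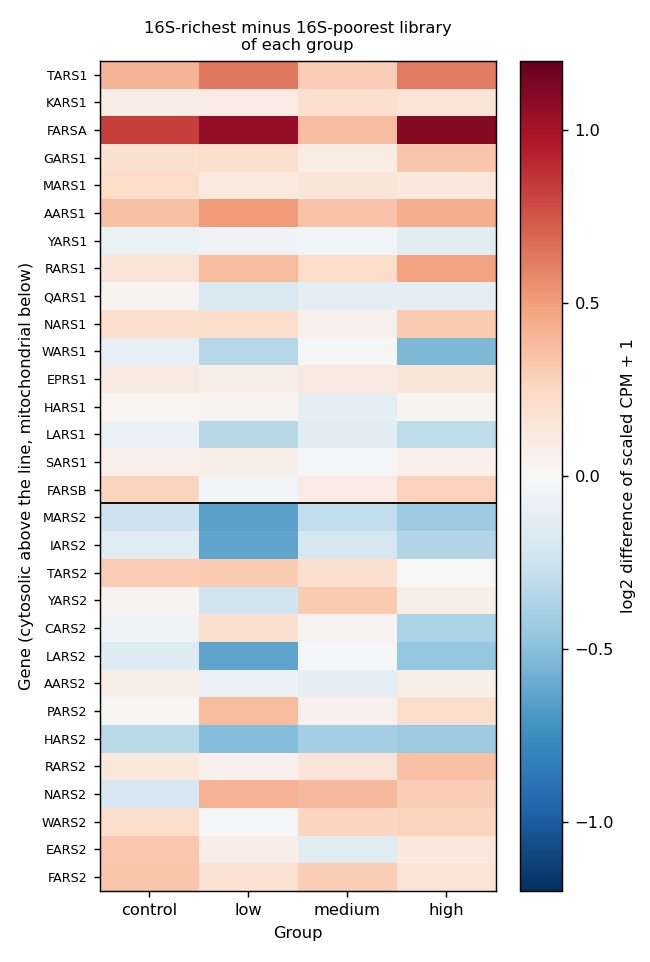
Log2 difference of scaled CPM + 1 between the library richest and the library poorest in 16S RNA within each group (columns), for 30 synthetase genes without copy entries (rows), cytosolic above the line and mitochondrial below. FARSA is the reddest row (0.37 to 1.10), and HARS2 (-0.32 to -0.52) and MARS2 (-0.25 to -0.64) are blue in all 4 columns.

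HARS1 and HARS2 share the stretch printed above. HARS1 had scaled CPM of 117, 117 and 115 in control, 133, 116 and 119 at low, 115, 124 and 118 at medium, and 111, 121 and 123 at high. HARS2 had 23.9, 26.1 and 30.1 in control, 25.6, 32.3 and 22.2 at low, 20.7, 27.6 and 22.6 at medium, and 24.1, 31.7 and 23.2 at high. The first stayed within 111 to 133, with low replicate 1 highest, and the second ranged from 20.7 to 32.3. For each 100 scaled CPM of HARS1 there were 18.1 to 27.9 of HARS2, with the highest values in low replicate 2, high replicate 2 and control replicate 3, the 3 libraries lowest in 16S RNA. At high HARS1 was at 0.025 ± 0.082 and HARS2 at -0.020 ± 0.18 (log2, SE; edgeR adjusted p = 0.932 and 0.974).

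EPRS1, of the 32 members without copies the one with the smallest ratio of highest to lowest library, had scaled CPM of 428, 421 and 396 in control, 414, 416 and 438 at low, 428, 397 and 411 at medium, and 453, 403 and 447 at high. GARS1 had 351, 348 and 309.5 in control, 338, 322 and 372 at low, 371, 349 and 355 at medium, and 374, 315 and 397 at high. In high EPRS1 was at 0.067 ± 0.081 and GARS1 at 0.11 ± 0.10 (log2, SE; edgeR adjusted p = 0.815 and 0.813), with overlapping groups. Both were higher in the library richest in 16S RNA than in the poorest in all 4 groups (25.7% of all genes were). In high that log2 difference was 0.15 for EPRS1 and 0.33 for GARS1, and its part in the values above was not tested. TARS2, the mitochondrial threonine enzyme, had 74.8, 69.2 and 60.4 in control, 70.03, 71.3 and 89.0 at low, 82.0, 71.5 and 68.0 at medium, and 80.2, 67.0 and 66.8 at high, and FARS2 had 27.8, 21.5 and 22.0 in control, 27.1, 26.0 and 29.4 at low, 27.5, 22.3 and 21.4 at medium, and 24.2, 23.5 and 26.2 at high. Neither was free of overlap with control at any concentration.

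Other genes of the pathway gave 0 calls at any concentration (edgeR; 0% of all genes). The scaffold genes AIMP1, AIMP2 and EEF1E1 lay above control in 3 of 3 at every concentration. Of all genes 51.6%, 50.5% and 50.8% lay above control in low, medium and high. Medians of the scaffold genes were 0.11, 0.026 and 0.099, and AIMP2 had the smallest p (0.22 ± 0.10 in low, edgeR adjusted p = 0.913). Of the amidotransferase genes 2 of 3 lay above control each time, and GATB, its tRNA-binding subunit, was at -0.28 ± 0.11 in low (log2, SE; adjusted p = 0.913). The 10 mitochondrial translation factors had medians of 0.035, -0.023 and -0.040, and the 10 genes of tRNA maturation and export 0.030, 0.0098 and -0.019. The 5 cytosolic elongation factors had medians of 0.038, 0.070 and -0.15, and the 5 tested of 7 other synthetase-related genes -0.087, -0.045 and 0.047.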

How the data were processed

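Polyadenylated RNA from TK6 cells gave 12 libraries, read on an MGI sequencer (per the labels' protocols). Tools listed in the submitters' processing notes are HISAT2 2.2.1, fastp 0.23.4, MultiQC 1.27 and featureCounts 2.0.6, with GRCh38.p14 as build. How strand and multi-mapping reads were treated, and with which options, is not given in the sources used here.

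Raw read counts deposited by the authors cover 50006 entries with exon lengths. The authors also deposited CPM per library, which equalled count over total within 5e-05. Names were taken from the count table, because 51 differ in each CPM file. Of the values from 1 to 10, 68.7% were even, so counts may exceed independent fragments. Copy entries (5953, named SYMBOL_1 and so on) were summed into their gene for the whole table. Genes were kept with filterByExpr (11867), scaled with TMM and fitted with edgeR 4.0.16 (glmQLFit, glmQLFTest, R 4.3.3) over 4 groups, with 8 residual degrees of freedom, Benjamini-Hochberg adjustment over all genes and a threshold of 0.05. The pseudocount of the compartment score was 1 CPM. TPM was computed from the deposited counts and lengths. The fit was checked on simulated counts. DESeq2 1.42.0 and limma 3.58.1 were alternatives, with other scalings, filters, a replicate block and each library left out.

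Members, gene lists and tests were chosen with earlier results of these data known. The text names, by library, the 3 members highest per length and the lowest in each compartment, up to 3 members with the smallest p in each direction per concentration, and HARS1, HARS2, WARS1, EPRS1, FARSA, FARSB, KARS1 and GARS1. The other genes with copies, genes without overlap, motif-bearing genes, the neighbours of IARS1 and the genes named from other lists were added after their values were seen. Some members count in the totals, but their own values are not reported here.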

Additional observations from a re-analysis of the deposited data

How the results depend on the processing

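In low, medium, high, the F test and the trend, 0 synthetase genes were called under each alternative run (24 or 25 per comparison). The smallest adjusted p of a member was at least 0.442 in low, 0.781 in medium, 0.262 in high, 0.744 in the F test and 0.339 in the trend. Up to 4, 2, 6, 3 and 3 members had an unadjusted p below 0.05. Over all genes the edgeR fit reported here called 0, DESeq2 up to 4 in low, 3 in high, 11 in the F test and 1 in the trend, and edgeR on the 2 groups alone 4 in medium. Restricted to members without copies, added after seeing the data, the compartment difference was 0.089 in medium and 0.081 in high against -0.055 and -0.13 with all members; the cause was not tested. Primary entries alone gave 0.042, 0.0038 and -0.086 for the 3 concentrations. With 1 library left out, low gave -0.17 to 0.029 (lowest without low replicate 1, highest without low replicate 2), medium gave -0.11 to -0.0099, and high gave -0.19 to -0.099. With copy entries not summed VARS2 in low was -0.27 and CARS1 in medium -0.21, the opposite of their summed values, because only the primary entry was read. With 1 library left out IARS2 in low ran from -0.31 to 0.0055 (without low replicate 3), and without the 2 libraries richest in 16S RNA 0.0071. The other 340 values, of named genes and of the 2 compartment medians per length, kept their direction without a call or, for the medians, were again 192 and 19.97 TPM. With the replicate block 0 members were called in each comparison, while the blocked compartment difference (-0.071, -0.055 and -0.13) equals the unblocked one by construction, as each number occurs once in every group. What the replicate numbers stand for is not told by the labels. Same-numbered libraries deviated from their group means with correlations from -0.44 to 0.67 (9 of 18 above 0.1). Pairs of replicate 2 all lay above 0 (0.072 to 0.67), and pairs of replicates 1 and 3 went both ways. Of 12 libraries 6 correlated best with a library of their own number, and whether the numbers mark a batch was not tested. The 3 libraries of a group and the wide spread of genes with copies limit what could be resolved.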
